A study of Drosophila melanogaster with 12 samples.

Results

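CG9360, CG2065, CG6908, CG7382, CG9445 and CG4477 are 6 fly genes that were picked because their ratio of drug-treated to untreated heads departed from 0 at day 10 and lay near 0 at day 14, with no numeric limit set for either. They were found by current symbol among 6795 genes with a probe of their own on the array, and they have 7 of the 7558 such probes, CG7382 having 2. All 7 probes had values on at least 3 of the 4 day-10 arrays. The genes were chosen by their measured day-10 and day-14 ratios, so those ratios are given as a description. Where the model's calls are counted among them, the count stands beside that of all probes and supports nothing. On day 10 every array with a value lay above 0 for 6 of the 7 probes (as for 5.75% of the 9479 probes tested) and below 0 for CG4477 (as for 5.31%), with the sign of the dye swaps turned as described below. Without that turning, this held for 0 of the 7 probes, where 23.2% of all probes were above 0 and 21.1% below 0 on every array. The probes of CG7382 differed in size, and the 2 spots of CG4477 disagreed.

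RNA came from pooled heads of unmated Oregon-R males, a wild-type strain, and was measured on 12 spotted cDNA arrays of 2 colours, 4 for each of 3 groups. All treated males, aged 3 to 4 days at the start, were kept for 7 days on pentylenetetrazole (PTZ), a convulsant drug, at 8 mg/ml in their food. One group then spent 3 days on the antiepileptic ethosuximide (ETH), at 3.48 mg/ml, and its heads were taken on day 10. Another had the same 3 days of ETH and 4 more days on normal food, and the last went from PTZ to normal food for 7 days, and the heads of both were taken on day 14. Untreated males of the same age, fed normal food throughout, gave the RNA of the second channel. No group was harvested at day 10 without ETH, so at day 10 the effects of PTZ and of ETH cannot be told apart. Each array compares pools of whole heads, so a smaller number of cells of a type and less RNA per cell cannot be told apart either. The arrays hold ratios and no levels, so the tissue could not be checked against its marker genes. Arrays gave values for 5077 to 10433 probes each, and their number limits the precision.

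Short-chain dehydrogenases are a large family of NAD(H)- or NADP(H)-dependent oxidoreductases that act on alcohols, retinoids, steroids, sugars and foreign compounds. CG9360 and CG2065 are members; CG9360 carries the synonym FOHSDR, which stands for farnesol dehydrogenase of this family, and in mosquitoes such an enzyme oxidises farnesol on the way to juvenile hormone. CG6908 belongs to the ecdysteroid kinase-like family, named after a silkworm enzyme that phosphorylates moulting hormones; many of its fly members have no known substrate. CG4477 carries the synonym SPH214, a name of serine protease homologs, proteins with the trypsin fold that lack part of the catalytic residues. The annotation used here gives no role for CG7382 or CG9445. The genes lie on chromosome arms X (CG9360), 2L (CG7382), 2R (CG2065 and CG9445), 3L (CG4477) and 3R (CG6908) in RefSeq Release 6.

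Ratios below are log2 of treated over untreated, with the median of each array at 0, and a probe's value is the mean of its 2 adjacent spots. In replicates 1 and 2 the treated RNA carried Cy5, and in replicates 3 and 4, the dye swaps, it carried Cy3. Deposited ratios were taken to be Cy5 over Cy3, so the sign of the dye swaps was turned. No source used here states this, so the direction on dye swaps is an assumption, while replicates 1 and 2 have the same direction under either reading. Over all probes at day 10, 5.75% were above 0 and 5.31% below 0 on every array with the swaps turned. Without turning these shares were 23.2% and 21.1%. In the model described below, 22 probes passed with the swaps turned and 2889 without. The day-10 arrays thus agreed in sign for more probes without turning. Which reading holds was not tested.

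CG9360, the putative farnesol dehydrogenase, was at a similar height on all 4 day-10 arrays. Its ratios were 1.15, 1.34, 0.99 and 1.06 in replicates 1 to 4, a mean of 1.14 ± 0.15 (SD, n = 4), or 2.20-fold. Replicates 1 and 2 placed CG9360 above 98.4% and 99.6% of the probes on those arrays. The dye swaps placed it above 96.9% and 97.6% if turned, and above 3.03% and 2.42% if not. At day 14 after ETH the ratios were -0.07, -0.39, 0.13 and -0.19, with a mean of -0.13 ± 0.22 (SD, n = 4). At day 14 without ETH they were -0.06, 0.17, -0.27 and -0.43, with a mean of -0.15 ± 0.26 (SD, n = 4). In both arms 1 of 4 arrays stood above 0, and no day-14 array came near the lowest day-10 value, which the choice of the gene favours. The day-14 arms differed by 0.02 (SE 0.17, 95% interval -0.35 to 0.39, limma).

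CG2065, the other short-chain dehydrogenase, was high on 3 of the 4 day-10 arrays. Its ratios were 0.89, 1.39, 0.26 and 1.02, a mean of 0.89 ± 0.47 (SD, n = 4). Replicate 3, at 0.26, stood above 68.1% of the probes of its array, close to the day-14 values. At day 14 the 3 measured arrays after ETH stood at -0.01, 0.22 and -0.16, and the 4 arrays without ETH at 0.17, 0.07, 0.13 and -0.13. The lowest day-10 value lay just above the highest of these, which the choice of the gene favours. The day-14 arms differed by -0.0075 (SE 0.23, 95% interval -0.51 to 0.50).

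CG6908, the ecdysteroid kinase-like gene, had the highest single value of the 6 genes. Its day-10 ratios were 1.21 and 1.81 in replicates 1 and 2 and 0.74 in replicate 4, with no value in replicate 3, a mean of 1.25 ± 0.54 (SD, n = 3). Replicate 2 stood above 99.9% of the probes on its array. At day 14 after ETH the 3 measured arrays gave -0.29, 0.03 and -0.16. Without ETH the 4 arrays gave 0.22, 0.25, -0.0035 and 0.10. All 7 day-14 values lay below the 3 day-10 values, which the choice of the gene favours. The arrays of day 10 and of day 14 after ETH did not overlap for 3.01% of all probes. The day-14 arms differed by -0.24 (SE 0.23, 95% interval -0.75 to 0.26).

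CG7382 is measured by 2 probes, called A and B here, and they gave different sizes at day 10. Probe B stood at 0.78, 1.32, 1.29 and 1.03, a mean of 1.10 ± 0.25 (SD, n = 4). Probe A stood at 0.29, 0.30, 0.23 and 0.11, a mean of 0.23 ± 0.09 (SD, n = 4). Both were above 0 on all 4 arrays, and their ranges did not overlap. The files do not say which part of the gene each probe covers. At day 14 after ETH probe B spread widely, with 0.38, -0.64 and 0.27 on 3 arrays, and probe A had 0.09 and 0.01 on the 2 dye swaps. Without ETH probe B stood at -0.12, 0.04, -0.22 and -0.25 and probe A at 0.31, 0.33, 0.09 and -0.06. For probe A, 2 of the 4 arrays at day 14 without ETH were above its highest day-10 value, so the days overlapped.

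CG9445 was high on 3 of 4 day-10 arrays, at 1.04, 1.10, 0.24 and 0.78, a mean of 0.79 ± 0.39 (SD, n = 4). As with CG2065, replicate 3 was the low one. Its day-14 values followed the dye orientation. After ETH they were -0.16 and 0.74 with treated RNA in Cy5 and -0.32 and -0.46 in the dye swaps; without ETH they were -0.01 and 0.15, and -0.70 and -0.74. The day-14 replicate 2 after ETH lay within the day-10 range, and the mean without ETH, -0.32 ± 0.46 (SD, n = 4), was farther from 0 than that of any other of the 6 genes in that arm. The dye term, the part of the turned ratio that the model assigns to the dye orientation, was 0.34 for CG9445 and between -0.03 and 0.12 for the other 6 probes. The day-14 arms differed by 0.27 (SE 0.20, 95% interval -0.15 to 0.70).

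CG4477 was the one gene of the 6 that was lower in treated heads, at -0.90, -0.73 and -0.92 in replicates 1, 2 and 3 of day 10, with no value in replicate 4. The mean was -0.85 ± 0.11 (SD, n = 3), and the 3 arrays agreed closely. The spots behind those means did not. The first spot stood at -1.70 and -1.84 in replicates 1 and 2, where the second stood at -0.10 and 0.38. These gaps of 1.60 and 2.23 were larger than those of 97.7% and 99.4% of the probes on the same arrays. In replicate 3 the spots stood at -0.99 and -0.85, where the deposited ratio was 0.30 before turning and the array's median, set to 0 here, was -0.62. The model's mean was -1.51 from the first spot and -0.28 from the second, against -0.89 from both. At day 14 the gene stood at 0.11, 0.45, -0.20 and -0.01 after ETH, and at -0.05, 0.20, -0.11 and -0.06 without ETH, with the spots at most 0.40 apart. The day-14 arms differed by 0.09 (SE 0.15, 95% interval -0.24 to 0.42).

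**Figure D1:**
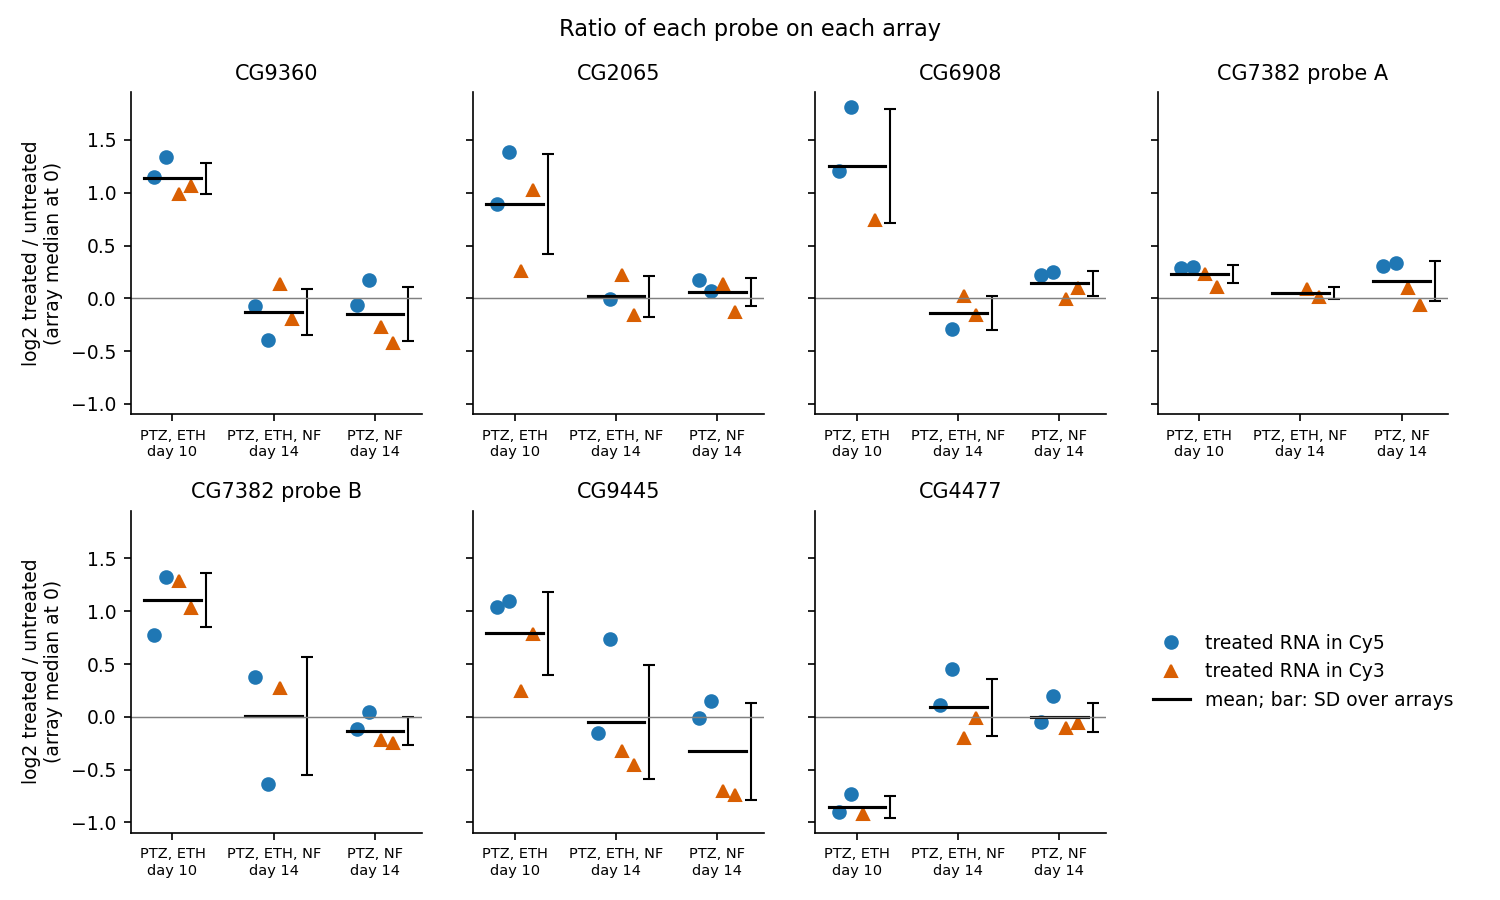
Each panel plots 1 probe: the log2 ratio of treated over untreated (vertical axis, array median at 0, dye swaps turned) on each array of the 3 groups (horizontal axis), with a line at the mean and a bar for the SD over arrays. CG9360 sits between 0.99 and 1.34 at day 10 and between -0.43 and 0.17 at day 14, and CG9445 splits by dye orientation at day 14.

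The spots of the other 6 probes lay closer together. Their gap between spots at day 10 ran from 0.00 to 0.45, and the largest, in replicate 3 of CG9360, exceeded that of 80.4% of probes. In replicate 3 of CG9445 the spots stood at 0.02 and 0.46, a gap that exceeded that of 79.2% of probes. The day-10 means of CG9360, CG2065, CG6908, CG7382 probe B and CG9445 were 1.16, 0.90, 1.27, 1.04 and 0.72 from the first spots and 1.11, 0.87, 1.16, 1.16 and 0.85 from the second. The means of these 5 were thus of similar size from either spot, while single arrays could differ more, as in replicate 3 of CG9445.

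**Figure D2:**
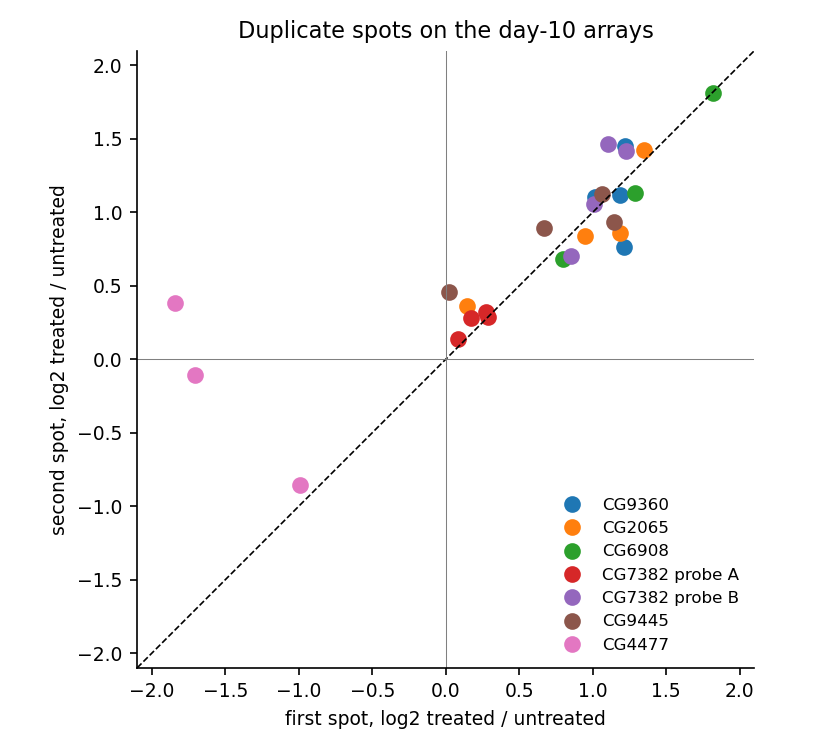
Log2 treated over untreated of the second spot (vertical axis) against the first spot (horizontal axis) for each probe and day-10 array; the dashed line marks equal values. Of the 3 points of CG4477, 2 lie far from the line, at -1.70 and -1.84 on the first spot, and the points of the other probes lie nearer to it.

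The sign of the deposited ratios changed with the dye orientation for all 7 probes at day 10. With array medians at 0 and nothing turned, CG9360 had a mean of 1.24 in replicates 1 and 2 and -1.03 in the dye swaps. For CG7382 probe B these were 1.05 and -1.16, for CG2065 1.14 and -0.64, for CG6908 1.51 and -0.74 (1 dye swap), and for CG9445 1.07 and -0.51. CG4477 ran the other way, at -0.82 and 0.92 (1 dye swap). Read as Cy5 over Cy3, these values put the treated RNA on the same side in both orientations. The genes were chosen by their day-10 ratios, which favours this, so nothing is read from it about which reading holds. Of all probes tested, 5.75% were above 0 and 5.31% below 0 on every array under that reading. Had the dye swaps been deposited already turned, the model's day-10 means would be 0.11 for CG9360, 0.25 for CG2065, 0.65 for CG6908, -0.05 for CG7382 probe B, 0.28 for CG9445 and -0.18 for CG4477. None of the 7 probes passed limma's test under that reading, where 2889 of the 9479 probes tested did. The choice of the genes favours this too, so nothing is read from that count. The description of these genes as changed at day 10 assumes the turned reading.

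**Figure D3:**
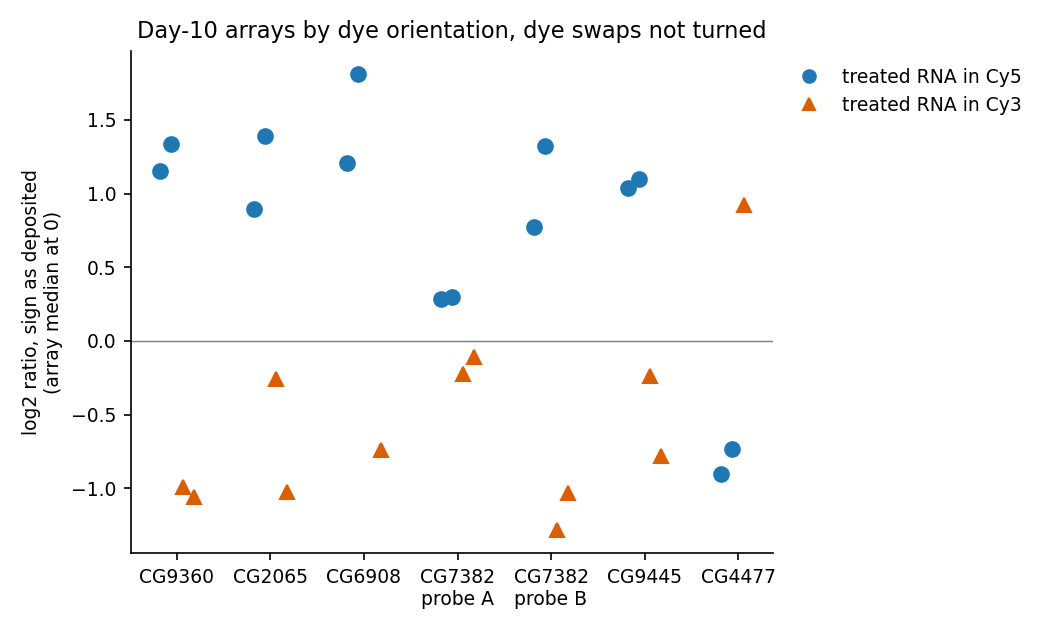
Log2 ratio with the sign as deposited and the array median at 0 (vertical axis) for each probe (horizontal axis) on the day-10 arrays, by the dye that carried the treated RNA. For each of the 7 probes the circles (treated RNA in Cy5) and triangles (dye swaps) lie on opposite sides of 0. The choice of the genes favours this.

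A linear model was fitted to all 12 arrays, holding 3 group means and a dye effect for every probe. Its day-10 estimates were 1.14 (SE 0.12) for CG9360, 0.89 (SE 0.15) for CG2065, 1.21 (SE 0.17) for CG6908, 0.23 (SE 0.10) for CG7382 probe A, 1.10 (SE 0.16) for CG7382 probe B, 0.79 (SE 0.14) for CG9445 and -0.89 (SE 0.13) for CG4477. Of the 7 probes, 6 passed limma's threshold, 5 higher and 1 lower, where 0.232% of the 9479 probes tested passed (0.127% higher and 0.105% lower). As the ratios chose the genes, nothing is read from that count. How often each of the 6 passed under the alternative settings given at the end is listed as a description. CG9360 passed in 22 of 26, CG7382 probe B in 14 of 26, CG9445 in 6 of 26 and CG2065 in 5 of 26. CG6908 passed in 12 of 22 and CG4477 in 11 of 22. These 2 genes had values on 3 day-10 arrays each and were not tested where a setting left too few. Many settings could not move an estimate: CG9360 stayed at 1.14 in each run without a day-14 array. The counts come from the ratios that chose the genes, so nothing is read from them and they do not rank the genes. From the second spots alone, 1 of the 7 probes passed, where 11 of all 9467 probes tested did. The total of 22 called probes fell to 2, 5, 9 and 14 without replicates 2, 4, 1 and 3 of day 10. It fell to 11 without replicate 3 or 4 of day 14 after ETH. Without replicates 1 to 4 of day 14 without ETH it fell to 8, 10, 7 and 7. With the replicate number as a block it was 12 of 7043 probes tested, 5 of them among the 7 probes. Without centring, 12 probes were higher and 4 lower, against 12 and 10. With the day-10 arrays fitted alone none of the 7 probes passed, where 1 of all 9479 probes did.

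Within the ETH arm, the change from day 10 to day 14 was -1.27 (SE 0.17) for CG9360, -1.32 (SE 0.25) for CG6908, -1.09 (SE 0.25) for CG7382 probe B, -0.84 (SE 0.20) for CG9445, -0.83 (SE 0.23) for CG2065 and 0.98 (SE 0.17) for CG4477. The choice of genes fixed these signs. Of the 6 probes, 1 passed (CG9360), where 0.0449% of 4451 probes did (2 in all), and nothing is read from that count. In all, 4 probes passed without replicate 1 of day 10. None passed without replicate 2 or 4 of day 10, without replicate 1, 2 or 4 of day 14 after ETH, or with the replicate block, where 223 had an unadjusted p under 0.05. The arrays of the 2 days did not overlap for 5 of the 6 probes, all but CG9445, and for 3.01% of all probes. Under the reading without turning this was so for 0 of the 6 and for 17.0% of all probes. No probe passed in either day-14 group or in the difference between the day-14 arms by limma; 170 after ETH, 344 without ETH and 53 in the difference had an unadjusted p under 0.05.

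Ratios on the day-10 arrays followed the order of the spot numbers, and the values move with it. That order is read here as position on the slide, since no slide coordinates were used. Probes were assigned to 48 runs of 576 spots in the order of their numbers, and the SD of the run medians was 0.22 to 0.37 on the day-10 arrays against 0.06 to 0.21 on the day-14 arrays. CG9360 lay in a run with medians of 0.34 and 0.14 in replicates 1 and 2 and -0.54 and -0.45 in the dye swaps, as treated over untreated. After subtraction its 4 values were 0.81, 1.20, 1.53 and 1.51, lower than before in replicates 1 and 2 and higher in the dye swaps. If the dye swaps are not turned, its model mean after subtraction was -0.26. The part of slide position in these ratios was not tested. CG7382 probe B stood at 1.31, 1.51, 0.98 and 0.68, and CG2065 at 0.68, 1.16, 0.55 and 1.27. CG6908 stood at 0.94, 1.60 and 0.85 on its 3 arrays. After subtraction each of these 4 probes was above 0.5 on every array with a value; before it, replicate 3 of CG2065 had been at 0.26. Probe A of CG7382 fell to 0.01 and 0.0017 in replicates 1 and 2 and stood at 0.43 and 0.39 in the dye swaps, and replicate 3 of CG9445 went from 0.24 to 0.00. CG4477 spread from -0.41 to -1.51, and its model mean after subtraction was -0.94, against -0.89 before. It no longer passed, where CG9360, CG2065, CG6908, CG7382 probe B and CG9445 did. In all, 19 of 9479 probes passed after subtraction, and nothing is read from the count among the chosen genes.

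**Figure D4:**
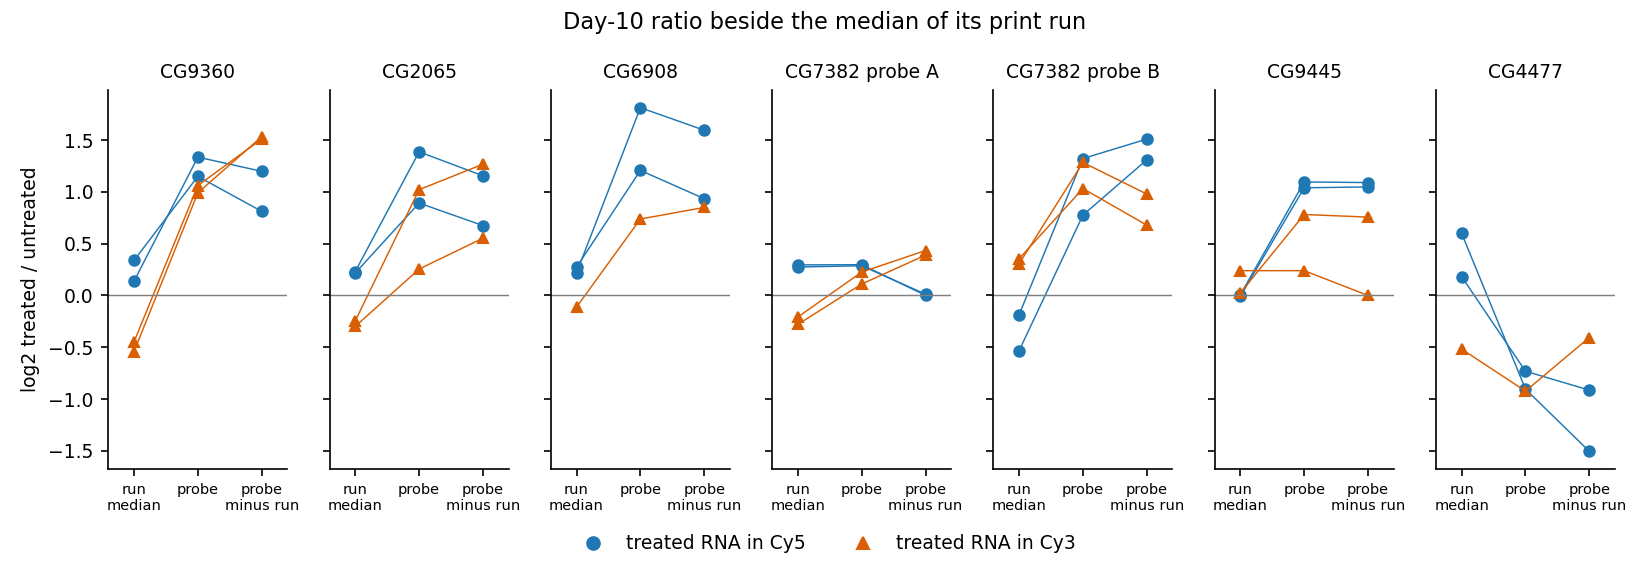
For each probe and day-10 array, the median of its run of 576 spots, the probe's own value, and the probe minus the run median (horizontal axis), all as log2 treated over untreated (vertical axis), by the dye that carried the treated RNA. CG9360 lies above 0.8 on all 4 arrays after subtraction, and the 2 Cy5 arrays of CG7382 probe A come to about 0.

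The other short-chain dehydrogenases lay on both sides of 0. Of 50 further listed genes 29 were tested at day 10, 15 above and 14 below 0, with a median of 0.02, the same as that of all probes, of which 53.7% were above 0. None passed (0.127% of all probes were higher and 0.105% lower). Rdh1 (CG2064), the listed relative that lies next to CG2065 on 2R, had values from 0.04 to 0.51 on 4 arrays and an estimate of 0.24 (SE 0.13). The lipid droplet dehydrogenase gene Ldsdh1 (CG2254) stood at 0.25 (SE 0.10). CG3842 had the smallest p and the opposite sign, at -0.49 (SE 0.13, limma adjusted p = 0.325), with all 4 arrays below 0, and CG31549 stood at -0.23 (SE 0.12). With dye swaps not turned, 12 of 29 were above 0 with a median of -0.04, and CG31549 changed sign, to 0.42. After run medians were subtracted, 9 of 29 were above 0 with a median of -0.07.

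The other ecdysteroid kinase-like genes had estimates from -0.61 to 0.74. Of 49 further listed genes 17 were tested at day 10, and 12 were above 0, with a median of 0.21 beside 0.02 for all probes; the difference from all probes was not tested. None passed the test over all probes. CG11893 came nearest at 0.74 (SE 0.13, limma adjusted p = 0.0766), with 4 arrays from 0.25 to 1.02. CG10560 at 0.67 (SE 0.16) and CG9498 at 0.66 (SE 0.16) were also above 0 on all 4 arrays, and CG7135 at -0.61 (SE 0.14) was below 0 on its 3. With dye swaps not turned, CG11893, CG10560 and CG9498 changed sign, to -0.13, -0.35 and -0.29. At day 14 the list had 3 of 11 genes above 0 after ETH (median -0.09) and 2 of 13 without ETH (median -0.14). With dye swaps not turned the day-10 median was -0.13, with 6 of 17 genes above 0, so the direction of the list rests on the turned reading; after run medians were subtracted it was 0.15 with 12 of 17. CG6834, the listed relative next to CG6908 on 3R, stood at 0.05 (SE 0.10).

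Serine proteases of the Jonah and trypsin type also lay on both sides of 0. Of 36 further listed genes 15 were tested at day 10, 9 above and 6 below 0, with a median of 0.12 and none past the threshold. The 4 with the smallest p were below 0: CG3088 at -0.42 (SE 0.17), CG7542 at -0.37 (SE 0.18), CG8329 at -0.32 (SE 0.14) and Jon66Cii at -0.26 (SE 0.13). CG3088 and CG7542 had values on 3 arrays each. With dye swaps not turned, 3 of these 4 changed sign, CG7542 to 0.36, CG8329 to 0.26 and CG3088 to 0.03, and the list had 10 of 15 above 0. After run medians were subtracted it also had 10 of 15, with a median of 0.04.

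**Figure D5:**
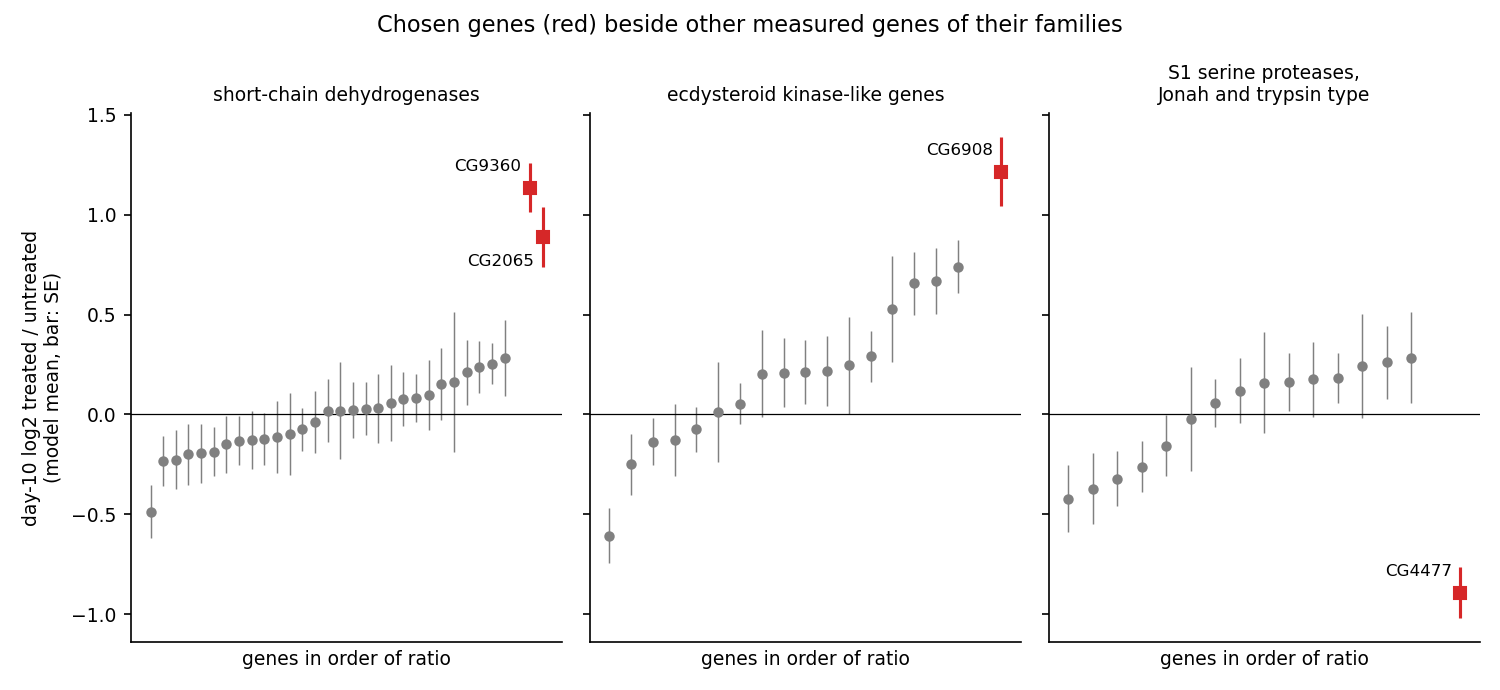
Day-10 log2 ratio of treated over untreated (vertical axis, model mean with a bar for the SE) of the chosen genes in red and the other measured genes of 3 listed families in grey, in order of size (horizontal axis). CG9360, CG2065 and CG6908 lie above the other measured genes of their lists and CG4477 below; they were chosen for these values.

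Genes next to the 6 on their chromosomes were compared, since neighbours were not part of the choice. Of the 36 nearest genes, 3 on each side, 15 had a probe and 11 were tested at day 10. None passed, and their estimates ran from -0.64 to 0.24 with a median of 0.05, 7 above and 4 below 0. The lowest was CG14717, near CG6908, at -0.64 (SE 0.21, n = 3). The eye colour gene cl, beside CG7382, stood at 0.15 (SE 0.13), Karl, near CG9360, at 0.01 (SE 0.13), and CG4483, beside CG4477, at -0.27 (SE 0.16). Above 0 were also Rdh1 and CG6834, given with their families, DCTN4-p62 at 0.21, Vps52 at 0.15 and coro at 0.08. Below 0 were also mid at -0.35 and CG15236 at -0.07.

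The probes most like each gene over at least 10 shared arrays were in part the other chosen genes, which the choice favours. By Pearson's r of the turned ratios, CG9360 was nearest to CG7382 probe B (r = 0.94 over 11 arrays) and CG6908 (r = 0.93 over 10), out of 2841 candidates. CG2065 was nearest to CG6908 (r = 0.93 over 10) and to the P450 gene Cyp4p1 (r = 0.91 over 10), which stood at 0.43 (SE 0.11) at day 10 and -0.12 and -0.06 in the day-14 groups. CG7382 probe B was next nearest to CG11893 of the ecdysteroid kinase-like list (r = 0.91 over 10). Cyp4p1 and CG11893 were not among the chosen genes and did not pass. Probe A was nearest to CG5597 and Gyf (r = 0.90 each over 10), and CG9445 to trem and eIF4E3 (r = 0.89 each over 12 and 11), none of which is among the 6. CG4477 was nearest to Rpt4R (r = 0.94 over 10) and CD98hc (r = 0.93 over 11), at -0.30 (SE 0.19) and -0.18 (SE 0.11) at day 10. These points share arrays, dye orientation and slide.

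Marker genes of head cell types were read beside these ratios; their part in the result was not tested. At day 10 all 7 tested glia genes were below 0, with a median of -0.36 and a range of -0.48 to -0.03. Of all probes 53.7% were above 0, with a median of 0.02. Gat stood at -0.48 (SE 0.17), alrm at -0.39 (SE 0.15), Gs2 at -0.37 (SE 0.13) and Inx2 at -0.36 (SE 0.12). Fat body genes had 3 of 7 above 0 and a median of -0.0042, and Lsp2, which codes for a larval serum protein, stood at -0.72 (SE 0.14). Photoreceptor genes had 4 of 8 above 0 (median -0.02), neuron genes 1 of 3 (median -0.03) and muscle genes 0 of 4 (median -0.12). With dye swaps not turned the glia median was again -0.36, with 1 of 7 genes above 0, but single genes moved. Inx2 then stood at -0.04 and Gs2 at -0.06, while Gat stood at -0.57 and alrm at -0.36. With dye swaps turned, Gat ranged from -1.21 to 0.08 and alrm from -1.12 to 0.12, each above 0 on 1 array. Without turning, the medians of the fat body, photoreceptor, neuron and muscle genes changed sign, to 0.40, 0.23, 0.21 and 0.14. Lsp2 changed to 0.19. After run medians were subtracted, 1 of 7 glia, 1 of 7 fat body, 3 of 8 photoreceptor, 1 of 3 neuron and 0 of 4 muscle genes were above 0. The glia median was then -0.33. Of the midgut list 1 gene was tested, Jon65Aiii at 0.06 (SE 0.12). No gene of these lists passed. The other genes with the smallest p were Act88F at -0.32, Arr2 at -0.32, Fbp2 at -0.23, chp at -0.18, unc-13 at -0.15, TpnC4 at -0.12 and Act79B at -0.11, with trp at 0.10 and Galphaq at 0.12 above 0.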

How the data were processed

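Log2 ratios of the 2 channels were deposited by the authors, who quantified spots in GenePix Pro 6.0 and normalized ratios in Acuity 4.0, leaving out spots under 100 intensity units and under 2 times the background from normalization, per the labels' design text, which also filters spots by saturation, flags and uniformity. The log base was read from the values (100% of the lowest were whole multiples of 0.001 as ratios, tolerance 0.05 of a step). Array medians were not at 0 as deposited, for a reason not given in the sources used here. From these values, 5 spot values at the ceiling of 16.61 were set to missing, adjacent spots were averaged, each array was centred on its median and dye swaps were turned in sign. Of the 13824 probes on the array, those with enough values were fitted by a linear model with limma 3.58.1 (lmFit, eBayes) in R 4.3.3. Tests were 2-sided and needed at least 3 values per group, which left 9479 probes at day 10. Benjamini-Hochberg adjustment was over all probes tested, with a threshold of 0.05. The script was tested on simulated data. Probe genes came from the platform annotation: 7558 probes have 1 gene, 51 several and 6215 none, and 7447 matched a current symbol. Named genes are the 6 chosen ones, the 2 probes most like each, their 3 neighbours on each side, and up to 4 genes per list by smallest p. Genes and lists were chosen with earlier results of these data known. Paralogs by protein sequence and promoter motifs were not analysed here. At most 0.289% of values were identical between any 2 arrays, so none was a duplicate. Each group's 4 arrays came from separate head pools, per the labels' protocols. After group means and dye were removed, deviations of same-numbered arrays of different groups were correlated. The correlation was 0.23 for replicates 1 and 2 of the 2 day-14 groups and -0.07 to 0.07 otherwise. The numbers were not taken as pairs, so the SEs of the difference between the day-14 arms allow for no pairing.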

Additional observations from a re-analysis of the deposited data

Results flagged for a closer look

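CG9360 differed between the days of the ETH arm: its ratio at day 14 minus that at day 10 was -1.27 log2 (SE 0.17), from 1.14 to -0.13 with dye swaps turned. The gene was chosen for this pattern, so the difference is a description. No array stood apart from the others by Dixon's 95% limit in any of the 15 sets of 4 values of these probes; chance would mark about 1 set in 20.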

How the results depend on the processing

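Of the recomputed values of the 7 probes in the 3 groups, 470 moved by less than the SD over arrays, 28 by more, and 2 turned in sign from a called value: CG7382 probe B to -0.0549 with dye swaps not turned, and CG9360 to -0.26 with run medians subtracted and dye swaps not turned. Many of the 470 could not move. Where a probe had values on every array of a group, its mean there did not depend on the dye term or on arrays of other groups. The limit was also wide where arrays spread. CG9445 at day 14 after ETH went from -0.05 to 0.34 with dye swaps not turned, within its SD of 0.54. The 470 are thus not read as a sign of stability. The 22 probes called at day 10 became 2889 with dye swaps not turned, 1558 with run medians subtracted as well, 9 without a dye term, 1 with the arrays of the group alone, 0 after scaling arrays to equal spread (315 at an unadjusted p under 0.05), 8 with array weights, 10 with 4 arrays needed, 13 and 11 from the first and second spots, 12 with the replicate block, and 2 to 16 with 1 array left out. In the difference of days in the ETH arm, 2 calls became 213 and 155 with dye swaps not turned, without and with run medians subtracted, 1 from the first spot, and 0 from the second spot, without a dye term, with these arrays alone, scaled, with array weights or with the replicate block (139 to 223 at an unadjusted p under 0.05 by limma), and 0 to 4 with 1 array left out. At day 14 without ETH, 0 calls became 240 with that group's arrays alone (CG9445 among them, at -0.32), 20 with arrays scaled and 60 with array weights. No alternative changed the 0 calls at day 14 after ETH or between the arms. The cause of these changes was not tested. Replicate numbers share the dye orientation, and with the replicate block, which was not a pairing, the calls in the other 3 comparisons stayed at 0. Day-10 calls rest on a variance pooled over all 12 arrays. The SD over the probes of an array was 0.27 to 0.39 at day 14, against 0.46 to 0.58 at day 10. That is a spread among probes, and the spread between replicates, which the model pools, was not compared between the days.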
